A study of Mus musculus with 6 samples.

Results

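The axon guidance genes of the irradiated mouse cortex were taken as every gene of the count table whose symbol names an ephrin, an Eph receptor, a semaphorin, a plexin, a neuropilin, a Slit, a Robo, a netrin, a netrin-G, an Unc5 receptor or *Dcc*. This rule found 73 of the 51826 genes listed, of which 70 are protein-coding and 3 are antisense RNAs of the *Plxna4* locus (*Plxna4os1*, *Plxna4os2* and *Plxna4os3*). The rule reads symbols and no measured value, but the families were selected on earlier results of the same genotype contrast (fold changes and tests in these 6 libraries), so the counts of members given here are a description. The libraries came from the cortex of male BALB/c mice of 6 to 8 weeks of age, 3 wildtype (Lgmn+/+-IR) and 3 AEP-knockout (Lgmn−/−-IR), and all had received 10 Gy of X-ray to the whole brain and were sampled on day 3. *Lgmn* encodes asparagine endopeptidase (AEP, legumain), a lysosomal cysteine protease, and the knockout line goes back to a targeted embryonic stem cell clone. Non-irradiated cortex was not analysed here, so every difference is between genotypes after irradiation.

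Growing axons are steered by ligands that attract or repel the growth cone, and the same molecules stay on in the adult brain, where they act on synapses, dendritic spines, myelinating cells and blood vessels. Ephrins are held in the membrane, the A class by a lipid anchor and the B class by a transmembrane segment, and bind Eph receptor tyrosine kinases on the neighboring cell. Secreted class 3 semaphorins mostly signal through neuropilins paired with A-type plexins, whereas most membrane semaphorins bind plexins directly. Slits bind Robo receptors and repel, netrins attract through Dcc and repel through Unc5 receptors, and the netrin-Gs are lipid-anchored relatives that bind the synaptic NGL proteins instead of Dcc.

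The total counts of the 6 libraries lay between 41874462 and 46829441, and the members together took between 0.319% and 0.33% of them in each library. *Lgmn* itself had 5558, 5528 and 5775 counts in wildtype mice against 3703, 3269 and 4109 in knockout mice, which is −0.64 on the log2 scale with a standard error (SE) of 0.12 (adjusted p = 0.0315 by edgeR's quasi-likelihood test), and these counts cover the whole gene and not the deleted part alone. Leaving out Lgmn+/+-IR replicate 1, 2 or 3 or Lgmn−/−-IR replicate 1 raised its adjusted p to 0.103, 0.131, 0.104 and 0.0949. Markers of excitatory neurons were high in every library (5153 to 7015 in counts scaled to library size, CPM, summed over 5 genes), as the label cortex would have it, and those of the choroid plexus were low (29.2 to 50.4 CPM). The 5 oligodendrocyte markers summed to 3076 to 3737 CPM in Lgmn+/+-IR and 2023 to 2146 CPM in Lgmn−/−-IR, and 4 of the 5 passed the test as lower. The 5 striatal markers followed no genotype. They summed to 336, 804 and 1320 CPM in Lgmn+/+-IR replicates 1, 2 and 3 and to 1244, 270 and 281 CPM in Lgmn−/−-IR replicates 1, 2 and 3. The 5 red blood cell markers summed to 7.59 to 15.8 CPM in Lgmn+/+-IR and to 2273, 1728 and 234 CPM in the 3 Lgmn−/−-IR replicates. In bulk tissue, fewer cells of a type and less RNA per cell cannot be told apart.

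The axon guidance genes differed little between the genotypes. Of the 73 members, 69 had enough counts to be tested, and 2 passed edgeR's quasi-likelihood test at an adjusted p under 0.05. The Eph receptor *Epha8* fell and the netrin-G *Ntng1* rose in Lgmn−/−-IR mice. This is 2.9% of the members tested, against 3.33% of the 18345 genes tested, so the share of called members is no larger than that of all genes tested. In each direction 1 member was called (1.45%), against 1.65% of all genes for higher and 1.68% for lower levels. By edgeR, no member reached the study's own criterion, which also asks for an absolute log2 fold change over 1, and 2.06% of all genes did. *Plxna3* reached it with DESeq2 (1.27, adjusted p = 0.000408) and, by edgeR, without Lgmn+/+-IR replicate 1 (1.63, adjusted p = 0.0194). The study itself used limma. In the limma fits run here *Plxna3* missed the criterion, at 1.32 (adjusted p = 0.0502) by voom and 0.64 (adjusted p = 0.202) on log2(FPKM + 1). DESeq2 called more genes in all (7.76%) and 6 members (8.7%), with *Plxna3*, *Plxnc1* and *Unc5a* as further higher members and *Sema5b* as a further lower one. At an unadjusted p under 0.05, 7 members were higher and 4 lower, 15.9% in all, against 18.6% of all genes. The median log2 fold change was 0.03 over the members and −0.01 over all genes tested, and the median absolute log2 fold change was 0.16 over the members and 0.21 over all genes.

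For 59 of the 69 members (85.5%), the 95% interval of the fold change lay within 2-fold in either direction, and for 37 (53.6%) within 1.5-fold, against 70.3% and 43.3% of all genes tested. The 10 members whose interval reached past 2-fold were *Epha8*, *Ephb6*, *Efna4*, *Dcc*, *Ntng1*, *Ntn1*, *Sema5b*, *Nrp1*, *Plxna3* and *Robo3*. The libraries of the genotypes did not overlap in 14 members (20.3%), with 8 higher and 6 lower in the knockout mice, against 25.7% of all genes. The intervals are not adjusted for the number of genes.

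**Figure D1:**
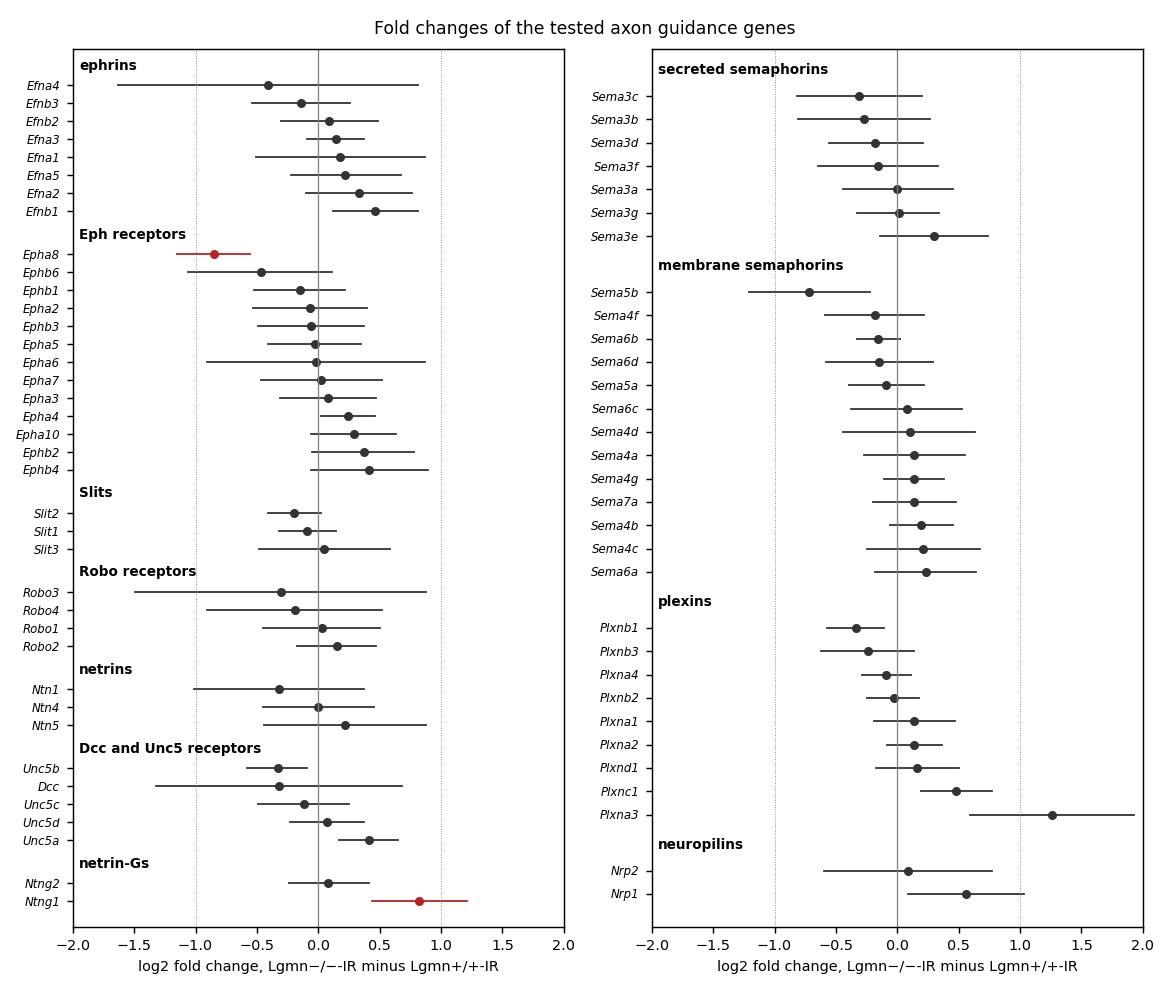
Log2 fold change of each of the 69 tested members, Lgmn−/−-IR minus Lgmn+/+-IR (3 libraries each), by family. Points are edgeR estimates, lines are unadjusted 95% intervals, dotted lines mark 2-fold differences, and red marks the 2 members with an adjusted p under 0.05, *Epha8* (−0.85) and *Ntng1* (0.82), while *Plxna3* lies furthest to the right (1.26).

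Among the ephrins and Eph receptors, 1 of 21 tested members passed the test. *Epha8*, an Eph receptor known for its part in steering midbrain axons, is encoded between positions 136929419 and 136956816 of chromosome 4 (GRCm38). Its libraries gave 766, 659 and 896 counts in wildtype mice against 426, 467 and 426 in knockout mice, so that each knockout library was below each wildtype library. This is 17.7 ± 2.17 against 9.79 ± 0.245 CPM (SD, n = 3 each), 0.553-fold, with a log2 fold change of −0.85 (SE 0.12, 95% interval −1.15 to −0.56, adjusted p = 0.0151 by edgeR's quasi-likelihood test). Leaving out any single library kept the log2 fold change between −0.94 and −0.77. The adjusted p then missed 0.05 without Lgmn+/+-IR replicate 1 (0.0549) or 3 (0.0606) and without Lgmn−/−-IR replicate 1 (0.0586) or 3 (0.0597). *Epha8* was among the less abundant Eph receptors, at 3.35 ± 0.376 FPKM in Lgmn+/+-IR and 1.8 ± 0.125 in Lgmn−/−-IR (FPKM is scaled for transcript length, so genes can be compared in it).

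*Ephb2*, which lies close to *Epha8* on chromosome 4 (136647539 to 136835988), encodes a receptor that clusters glutamate receptors at synapses. Its counts were 884, 745 and 949 in wildtype mice against 903, 1118 and 1390 in knockout mice, which overlap (log2 fold change 0.37, SE 0.18, adjusted p = 0.318). The point estimates of these nearby genes thus have opposite signs. *Epha4*, a receptor for A and B ephrins on neurons and astrocytes, had 142, 132 and 142 CPM in wildtype mice against 152, 159 and 179 CPM in knockout mice. Its libraries do not overlap, but the difference is small and was not called (log2 fold change 0.24, SE 0.09, adjusted p = 0.230). *Ephb4*, the receptor of veins, and *Epha10*, an Eph receptor without kinase activity, had log2 fold changes of 0.41 (95% interval −0.06 to 0.89) and 0.29 (−0.06 to 0.63).

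*Ephb6*, another kinase-inactive Eph receptor, had the highest receptor level of all the families in the mean FPKM of the 6 libraries (43.5 ± 15.3 in Lgmn+/+-IR and 30.4 ± 5.26 in Lgmn−/−-IR). Lgmn+/+-IR replicate 1 stood apart, with 10685 counts against 6372 and 6006 in the other wildtype libraries and 4656, 6709 and 5833 in the knockout libraries. The log2 fold change of −0.47 (SE 0.25, adjusted p = 0.362) became −0.13 without that library. The other 7 tested Eph receptors had log2 fold changes between −0.15 and 0.08. *Epha1* had 10, 19 and 10 counts in wildtype mice against 7, 10 and 10 in knockout mice and was too low to be tested.

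No ephrin was called by edgeR or DESeq2. *Efnb1*, an X-linked B ephrin, came nearest, with 16.9, 22.8 and 19.4 CPM in wildtype mice against 23.5, 28.1 and 29.9 CPM in knockout mice. The libraries do not overlap, although the lowest knockout and highest wildtype values are close (log2 fold change 0.46, 95% interval 0.12 to 0.81, adjusted p = 0.159). *Efnb3*, a B ephrin and repellent of corticospinal axons, was the most abundant ephrin, with 39.5 ± 7.5 and 34.8 ± 5.4 FPKM, and did not differ detectably (log2 fold change −0.14, 95% interval −0.54 to 0.26). *Efna4* was the least abundant, with 9 to 30 counts per library, and its interval of −1.63 to 0.81 leaves a difference of over 2-fold in the lower direction undetected. The median over the 8 ephrins was 0.16, and that over the 13 tested Eph receptors −0.02.

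**Figure D2:**
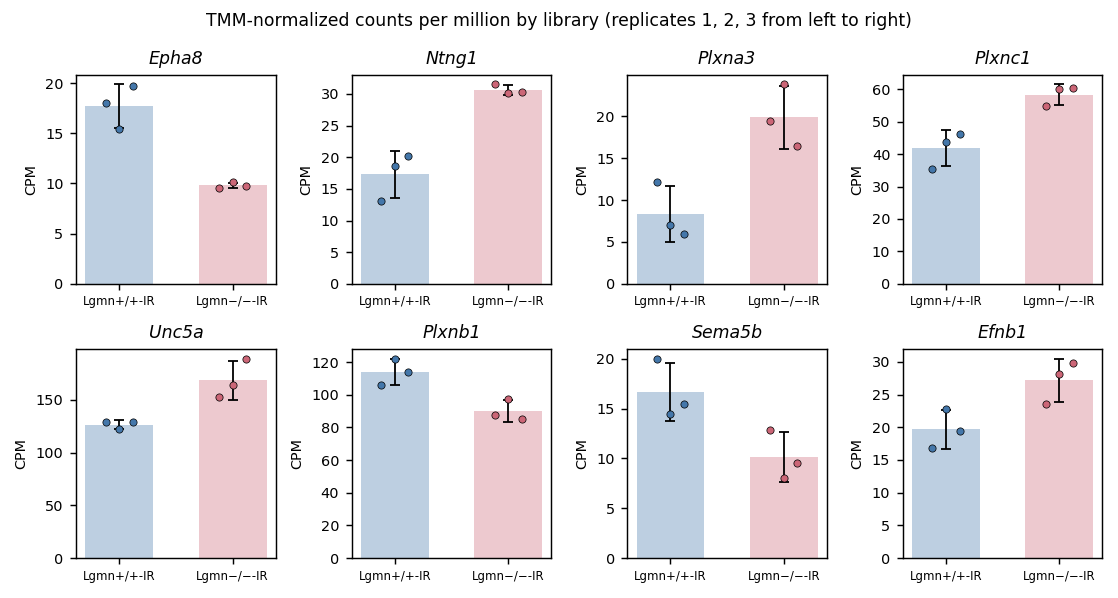
TMM-normalized CPM (counts scaled to library size) in each library for 8 of the 11 members with an unadjusted p under 0.05. Bars are means, error bars SD (n = 3), points the replicates, and in each panel no library of a genotype overlaps with the other genotype, but only *Epha8* and *Ntng1* have an adjusted p under 0.05.

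By edgeR, no semaphorin, plexin or neuropilin was called among the 31 tested, whereas DESeq2 called *Plxna3*, *Plxnc1* and *Sema5b*. The largest difference of all the members was in *Plxna3*, an X-linked receptor subunit for class 3 semaphorins (chromosome X, 74329066 to 74344689). It had 516, 298 and 268 counts in wildtype mice against 864, 1103 and 720 in knockout mice, or 8.32 ± 3.32 against 19.9 ± 3.7 CPM. Every knockout library was above every wildtype library, and Lgmn+/+-IR replicate 1 was the highest of its genotype. The log2 fold change was 1.26 (SE 0.28, 95% interval 0.59 to 1.93), and the adjusted p of 0.0658 missed the threshold. With DESeq2 the adjusted p of *Plxna3* was 0.000408. Without Lgmn+/+-IR replicate 1 the log2 fold change was 1.63, with an adjusted p of 0.0194 by edgeR's quasi-likelihood test. In FPKM the difference was smaller and the genotypes overlapped, with 3.08, 1.63 and 1.46 in wildtype mice against 3.05, 4.62 and 3.36 in knockout mice (log2 ratio of the means 0.84, against 1.26 in CPM).

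*Plxnc1*, the receptor of Sema7a, had 1516, 1876 and 2106 counts in wildtype mice against 2436, 2791 and 2646 in knockout mice, without overlap (log2 fold change 0.48, SE 0.12, adjusted p = 0.0906 by edgeR and 0.0147 by DESeq2). Its ligand *Sema7a*, a lipid-anchored semaphorin, was the most abundant ligand of all the families, with 61.6 ± 9.37 and 65.7 ± 6.52 FPKM, and its log2 fold change was 0.14 (95% interval −0.2 to 0.48). *Plxnb1*, the receptor of Sema4d, went the other way, with 106, 122 and 114 CPM in wildtype mice against 87.7, 97.4 and 85.1 CPM in knockout mice (log2 fold change −0.34, SE 0.1, adjusted p = 0.120). *Sema4d*, which oligodendrocytes and other cells carry, had a log2 fold change of 0.10 (95% interval −0.44 to 0.63). The most abundant plexin in FPKM was *Plxnd1*, a receptor of endothelial cells and of some neurons (18.4 ± 3.23 and 19.9 ± 0.477 FPKM), with a log2 fold change of 0.16. The remaining 5 tested plexins had log2 fold changes between −0.24 and 0.14, and the median over the 9 tested plexins was 0.14.

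*Nrp1*, a coreceptor for class 3 semaphorins and for VEGF, had 9.12, 13.2 and 14.3 CPM in wildtype mice against 19.4, 14.8 and 19.9 CPM in knockout mice. The genotypes do not overlap, but 14.3 and 14.8 almost meet (log2 fold change 0.56, SE 0.2, adjusted p = 0.200). *Nrp2*, its relative, overlapped widely (log2 fold change 0.09, 95% interval −0.60 to 0.77). The 7 secreted class 3 semaphorins lay between −0.31 for *Sema3c* and 0.3 for *Sema3e*, with a median of −0.16. That median was −0.01 without Lgmn+/+-IR replicate 3.

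Among the 13 membrane semaphorins, *Sema5b*, which repels retinal axons, was furthest from 0, with 855, 623 and 707 counts in wildtype mice against 575, 371 and 419 in knockout mice. Each knockout library was below each wildtype library (log2 fold change −0.72, SE 0.21, adjusted p = 0.132 by edgeR and 0.0288 by DESeq2). *Sema6b*, a plexin A ligand and the next most abundant ligand after *Sema7a*, had 207, 193 and 205 CPM against 179, 184 and 181 CPM, a small difference without overlap (log2 fold change −0.16, SE 0.08, adjusted p = 0.328). The other 11 had log2 fold changes between −0.18 and 0.23, and the median over the 13 was 0.10. Of the antisense RNAs, *Plxna4os1* had 4 to 8 counts per library, *Plxna4os2* had 2 counts in 1 knockout library and 0 in the others, and *Plxna4os3* had 0 in every library. None of the 3 was tested. A count of 0 in a single library leaves room for an expected count of up to about 3 there at 95% confidence, counting error only. With 0 in all 6 libraries, *Plxna4os3* has room for less per library.

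The Slit and Robo genes held no call and no unadjusted p under 0.05 among 7 tested. *Slit2*, a repellent for many axons, had 1337, 1417 and 1366 counts in wildtype mice against 1184, 1247 and 1266 in knockout mice. Its libraries do not overlap after scaling (31.5 ± 1.53 and 27.5 ± 1.21 CPM, log2 fold change −0.2, adjusted p = 0.301). *Slit1*, the most abundant Slit (9.44 ± 0.735 and 8.59 ± 0.509 FPKM), and *Slit3* had log2 fold changes of −0.09 (95% interval −0.32 to 0.14) and 0.05 (−0.48 to 0.58). *Robo2*, the most abundant receptor of the Slits here (15 ± 2.12 and 16.1 ± 1.01 FPKM), had a log2 fold change of 0.15 (−0.17 to 0.47). The median was −0.09 over the 3 Slits and −0.08 over the 4 Robo receptors.

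*Robo3*, known for letting axons cross the midline, was set by a single library. It had 1514 counts in Lgmn+/+-IR replicate 1 against 453 and 463 in the other wildtype libraries and 471, 894 and 689 in the knockout libraries. The log2 fold change of −0.3 (SE 0.5) turned to 0.56 without that library (adjusted p = 0.340). *Robo4*, the Robo of endothelial cells, is the neighbor of *Robo3* on chromosome 9 and showed the reverse in that library. It was lowest of the wildtype in replicate 1, with 226 counts against 434 and 435, and had 386, 228 and 362 counts in Lgmn−/−-IR (log2 fold change −0.19, 95% interval −0.91 to 0.52).

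Of the 10 netrin, netrin-G, *Dcc* and *Unc5* genes, *Ntng1* passed the test. *Ntng1* encodes netrin-G1, which marks thalamocortical and other axons and binds NGL1 on the dendrites they contact, and it lies on chromosome 3 from 109780040 to 110144011. It had 560, 797 and 920 counts in wildtype mice against 1401, 1396 and 1330 in knockout mice. The knockout libraries were close to each other and all above the wildtype libraries, of which replicate 1 was lowest. The means were 17.3 ± 3.72 and 30.6 ± 0.788 CPM, 1.77-fold, with a log2 fold change of 0.82 (SE 0.16, 95% interval 0.44 to 1.21, adjusted p = 0.0456 by edgeR's quasi-likelihood test). The call was a narrow one. It held without Lgmn+/+-IR replicate 1 (0.67, adjusted p = 0.0378), and the adjusted p was 0.138 and 0.0694 without Lgmn+/+-IR replicates 2 and 3 and 0.119, 0.0859 and 0.133 without Lgmn−/−-IR replicates 1, 2 and 3. In limma on log2(FPKM + 1) the log2 fold change was 0.63 with an adjusted p of 0.0996. *Ntng2*, its paralog and the more abundant of the pair (18.7 ± 1.96 and 19.3 ± 2.42 FPKM, against 3.98 ± 0.9 and 6.61 ± 0.533 for *Ntng1*), did not differ detectably (log2 fold change 0.08, 95% interval −0.24 to 0.41). The NGL genes *Lrrc4c* and *Lrrc4*, whose products bind netrin-G1 and netrin-G2, were not called (0.13 and 0.33, adjusted p = 0.872 and 0.267).

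The *Unc5* receptors did not move as a family, and the median over *Dcc* and the *Unc5* genes was −0.12. *Unc5a*, the most abundant receptor after *Ephb6* in FPKM in Lgmn+/+-IR, had 129, 122 and 129 CPM in wildtype mice against 153, 164 and 189 CPM in knockout mice (log2 fold change 0.41, SE 0.1, adjusted p = 0.0825 by edgeR and 0.0168 by DESeq2). *Unc5b*, which endothelial cells and neurons use, had 29.0, 32.2 and 26.9 CPM against 22.2, 23.9 and 23.8 CPM (log2 fold change −0.33, SE 0.1, adjusted p = 0.151). Neither overlapped between genotypes. Neither was called by edgeR, and DESeq2 called *Unc5a* and not *Unc5b*. *Unc5c*, *Unc5d* and *Dcc* had log2 fold changes of −0.12, 0.07 and −0.32, and the interval was widest for *Dcc* (95% interval −1.32 to 0.68). The netrin ligands *Ntn1*, *Ntn4* and *Ntn5* had log2 fold changes of −0.32, 0.00 and 0.22, with intervals that all include 0. *Ntn4*, a netrin of basement membranes, read differently in the FPKM table, with 3.01, 3.17 and 3.66 in wildtype mice against 6.15, 3.83 and 2.96 in knockout mice, where replicate 1 stood apart although its count was 703 against 494 to 645 in wildtype. *Ntn4* and *Plxna3* were the 2 tested members whose log2 ratios in FPKM and CPM differed by 0.25 or more.

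**Figure D3:**
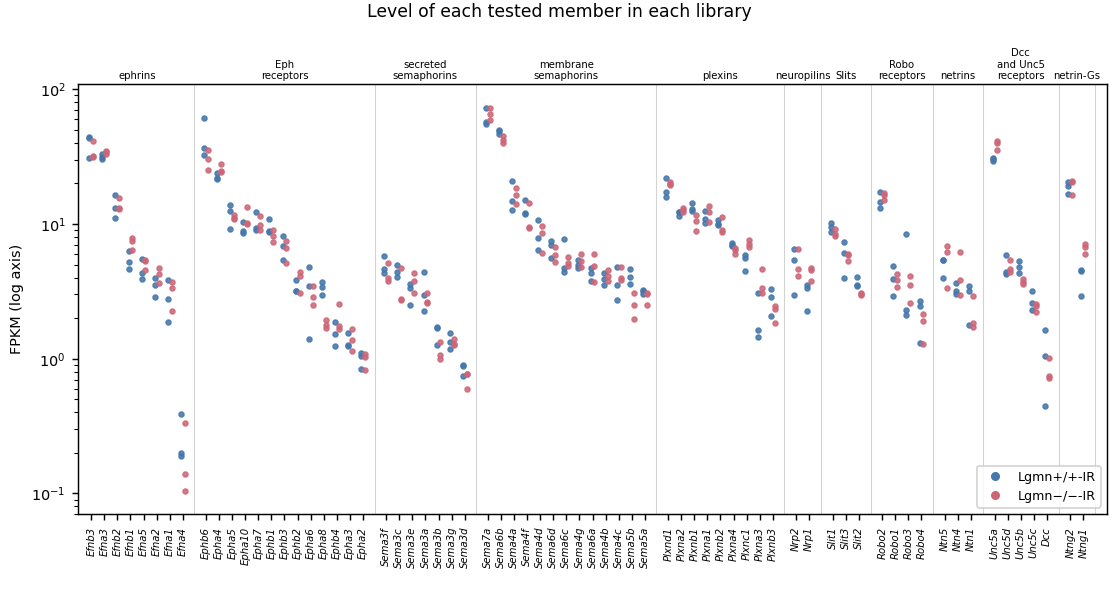
FPKM of the 69 tested members in each of the 6 libraries on a log axis, ordered within each family by mean level. The levels span 0.226 (*Efna4*) to 63.7 (*Sema7a*) in the mean of the 6 libraries, and for most members the points of the 2 genotypes lie over each other.

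In levels per length, the ligands were led by *Sema7a*, *Sema6b* (48.4 ± 1.43 and 42.3 ± 2.5 FPKM), *Efnb3* and *Efna3* (31.9 ± 1.41 and 33.9 ± 0.81 FPKM), and the receptors by *Ephb6*, *Unc5a*, *Epha4* (22.5 ± 1.18 and 25.7 ± 2.01 FPKM) and *Plxnd1*. *Efnb3* and *Efna3* overlapped between libraries, as did *Ephb6* and *Unc5a*, so their order within each pair is not settled. The median level was 4.71 FPKM over the 36 ligands and 5.02 over the 33 tested receptors. In the same mean over the 6 libraries, *Ntng1* had 5.3 FPKM and *Epha8* had 2.58 FPKM.

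Libraries of the same genotype also differed. The highest library exceeded the lowest 1.37-fold in the median member in Lgmn+/+-IR and 1.35-fold in Lgmn−/−-IR. Lgmn+/+-IR replicate 1 was the lowest of its genotype in 36 of the 69 members (52.2%, against 38% of all genes tested), and Lgmn−/−-IR replicate 2 in 33 (47.8%, against 36.6%). Lgmn−/−-IR replicate 1 was lowest in 28 (40.6%, against 29.1%) and replicate 3 in only 8 (11.6%, against 34.3%). Replicate 3 was the highest of its genotype in 30 members in each genotype (43.5%, against 34.7% in Lgmn+/+-IR and 34.1% in Lgmn−/−-IR). The widest spread was in *Dcc*, with 110, 260 and 437 counts in wildtype mice against 260, 190 and 206 in knockout mice. It was followed by *Robo3* and then by *Epha6*, an Eph receptor, with 242, 514 and 844 counts against 607, 499 and 501. *Nrp2* had 903, 1629 and 2061 counts against 2065, 1345 and 1567, and *Ntn1* had 452, 845 and 913 against 791, 479 and 537. In *Dcc*, *Epha6*, *Nrp2* and *Ntn1*, chosen here after their values were seen, wildtype replicate 1 was lowest and replicate 3 highest of its genotype, and knockout replicate 1 was highest of its genotype. The striatal markers have the same order within each genotype (336, 804 and 1320 CPM, and 1244, 270 and 281 CPM). So do the summed interneuron markers (997, 1283 and 1411 CPM, and 1472, 1131 and 1168 CPM). The summed markers of deep cortical layers share it too (189, 274 and 322 CPM, and 334, 209 and 236 CPM). The remaining marker lists do not. The order is thus not particular to the striatal list, and which tissue or cells it follows was not tested.

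**Figure D4:**
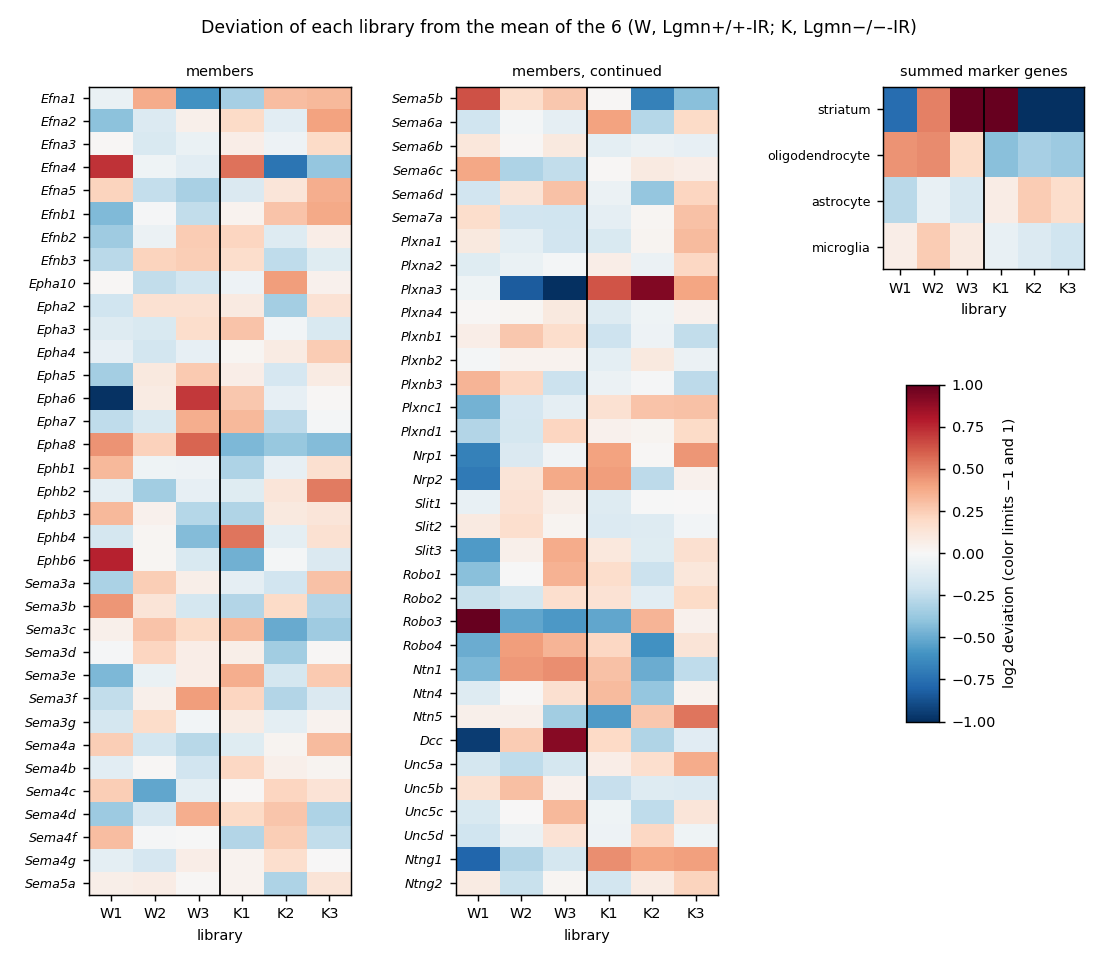
Log2 deviation of each library (W1 to W3, Lgmn+/+-IR; K1 to K3, Lgmn−/−-IR) from the mean of the 6 libraries for the 69 tested members and for 4 summed marker lists (color, red higher and blue lower). *Dcc*, *Epha6*, *Nrp2* and *Ntn1* are low in W1 and high in W3, as is the striatal sum (336 and 1320 CPM), whereas *Epha8* and *Ntng1* separate the genotypes.

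With the logarithm of the striatal sum as a covariate, an alternative chosen after seeing the data, the log2 fold change of *Dcc* went from −0.32 to 0.14, that of *Epha6* from −0.02 to 0.38, that of *Nrp2* from 0.09 to 0.37 and that of *Ntn1* from −0.32 to −0.07. None of these 4 was called in either fit. They were chosen after their values were seen, and their library order is that of the striatal sum. The interneuron and deep-layer sums have that order as well and were not used as covariates. Such shifts thus follow from the choice and test nothing. *Epha8* stayed at −0.85 (adjusted p = 0.031) and *Ntng1* was 0.93 (adjusted p = 0.0302), and these 2 remained the called members. *Ephb6* came closer to a call, at −0.63 (adjusted p = 0.0815). The oligodendrocyte sum was lower in Lgmn−/−-IR, with all 3 libraries below all 3 of wildtype. It is on the side of the 6 members that were lower without overlap (*Epha8*, *Sema5b*, *Plxnb1*, *Unc5b*, *Sema6b* and *Slit2*). Its part in them was not tested. The microglia markers also summed lower without overlap, to 175 to 200 CPM in Lgmn+/+-IR and 146 to 159 CPM in Lgmn−/−-IR. None of those 5 markers was called, and the part of microglia in the members was not tested. Astrocyte markers summed to 845 to 968 CPM in Lgmn+/+-IR and 1077 to 1218 CPM in Lgmn−/−-IR, and those of the meninges to 47.5 to 57.2 and 66.7 to 67.9 CPM. In each of these lists only 1 of the 5 markers passed the test as higher. Both sums are on the side of the 8 members that were higher without overlap (*Ntng1*, *Efnb1*, *Epha4*, *Nrp1*, *Plxna3*, *Plxnc1*, *Unc5a* and *Sema4b*). Any higher member is on the side of any higher sum, and the part of these sums was not tested either. The red blood cell sum was higher in every Lgmn−/−-IR library as well, and its part in the differences of the members was not tested.

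The other genes of the pathway were read from 2 lists, 30 coreceptors, further ligands and processing enzymes and 55 cytoplasmic effectors. All 85 were tested and none was called by edgeR's quasi-likelihood test. At an unadjusted p under 0.05, 12 were higher (14.1%, against 9.26% of all genes) and 1 was lower (1.18%, against 9.34%). DESeq2 called 4, all higher, which is 4.71% of the lists against 7.76% of all genes. Those 4, named after their values were seen, were *Neo1*, a receptor for netrins and RGM proteins (log2 fold change 0.48, SE 0.1, adjusted p = 0.0608 by edgeR), its ligand *Rgma* (0.44, adjusted p = 0.0867), *Farp1* (0.40, adjusted p = 0.0906), and the kinase *Fyn* (0.35, adjusted p = 0.119). The median log2 fold change was 0.17 over the coreceptor list and 0.11 over the effectors, against −0.01 over all genes. *Srgap3*, a GTPase-activating protein downstream of Robo receptors, stood apart in its spread. It had 12530, 12055 and 13423 counts in wildtype mice against 2510, 15510 and 2859 in knockout mice, so that knockout replicates 1 and 3 were far below every other library and replicate 2 was above them all. Its log2 fold change was −0.93 (95% interval −2.45 to 0.58) and became −2.25 without Lgmn−/−-IR replicate 2 (adjusted p = 0.000678 by edgeR's quasi-likelihood test).

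Exons of 15 members overlap a gene on the opposite strand in the GENCODE annotation. They are *Epha1*, *Epha6*, *Epha10*, *Ephb1*, *Ephb4*, *Efna3*, *Efna4*, *Unc5a*, *Unc5c*, *Ntn5*, *Sema4c*, *Plxna1*, *Plxna4*, *Plxna4os3* and *Plxnb1*, and the 2 called members are not among them. The use of strand in counting is not given in the sources used here, so reads of such pairs could have been shared. Exons of *Ntng2*, *Sema4a*, *Nrp1* and *Plxnc1* overlap a gene on the same strand, where strand could not separate the reads.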

How the data were processed

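RNA-seq libraries of irradiated cortex (3 wildtype, 3 AEP-knockout) were analysed, grouped by the sample labels, which give separate samples without naming the animals. The authors used Trimmomatic 0.36 for trimming and HISAT2 for alignment, and deposited a raw count per gene and library, without normalization. The authors also computed FPKM with StringTie and deposited it for the same genes. The submitters' processing notes name GRCm38, and positions were taken from GENCODE M21, where all 73 members and 51633 of 51826 gene IDs were found. The read counter, annotation and strand setting are not given in the sources used here.

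The main test was the quasi-likelihood F-test of edgeR 4.0.16 (R 4.3.3), with a single genotype term. Genes were kept by filterByExpr, libraries were scaled by TMM, and p-values were adjusted by Benjamini-Hochberg over the 18345 genes kept. A call is an adjusted p under 0.05. Standard errors come from the F statistic, and CPM are TMM-normalized. Between libraries of the same genotype the chi-square averaged 28.7 to 102 over genes, far above sampling noise, so none was merged. The fits were checked on simulated counts. Alternatives were DESeq2 1.42.0, limma 3.58.1 (voom, and log2 FPKM after adding 1 or 0.1), RLE or library-size scaling, looser and stricter count filters, a block for the replicate number, a striatal covariate and the omission of each library. Intervals and p-values measure only the spread between these samples. Floors at a count of 0 cover counting error only, since PCR copies were not told apart by molecular identifiers.

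The members, gene lists and tests were chosen with earlier results of these data known. The genes named are *Lgmn*, in each of 4 ligand and receptor systems the called members filled up to the 6 with the smallest p, and the most abundant ligand and receptor of each system. Members too low to test are given by their counts, and of the pathway lists the genes called were to be named (none was). Other genes and members were named after their values were seen.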

Additional observations from a re-analysis of the deposited data

How the results depend on the processing

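Of the 29 named members, 23 kept the sign of their log2 fold change in all alternatives run. This count includes *Efnb3*, which ranged from −0.28 to a value that rounds to 0, so its sign there is not settled. With DESeq2, 4 members were called higher and 2 lower (8.7%, against 7.76% of all genes), 1 of them with an absolute log2 fold change over 1, and 4 pathway genes were called. No member was called higher with limma on log2(FPKM + 1) or log2(FPKM + 0.1), with library size only, with no low-count filter or with at least 10 counts in every library, where the count was 0 each time. With the replicate number as a block, 0 members were called higher and 0 lower (*Epha8* adjusted p = 0.0889, *Ntng1* 0.131), 150 genes were called in all, against 611 without it, and *Lgmn* was −0.65 (adjusted p = 0.113). Deviations of libraries with a shared number did not go together (correlations −0.296, −0.0483 and −0.047). So few pairs cannot show whether such libraries share more than the number. *Lgmn* was −0.63 (adjusted p = 0.0632) with no low-count filter and −0.64 (0.0563) with the striatal covariate.

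When single libraries were left out, the members called higher ranged from 0 to 2 and those called lower from 0 to 1, those past both thresholds from 0 to 1, the pathway genes called from 0 to 1 and *Lgmn* from −0.74 to −0.54. The share of all genes called then also fell, to between 1.19% and 2.68%. Of 176 family medians recomputed, 160 moved by less than 1 SD between libraries. The striatal covariate moved the median of the Eph receptors to 0.18, of the secreted semaphorins to 0.01, of the membrane semaphorins to 0.02, of the plexins to 0.04 and of *Dcc* and the *Unc5* receptors to 0.09. With each library left out, those medians ranged from −0.06 to 0.20, from −0.19 to −0.01, from 0.02 to 0.13, from 0.00 to 0.17 and from −0.21 to 0.17. With limma on log2(FPKM + 1) the membrane semaphorins were at −0.03, also with a pseudocount of 0.1, and the netrin-Gs at 0.33. Signs turned for *Robo4* (0.02) and *Ntn5* (−0.06) with the striatal covariate. They also turned when single libraries were left out, with ranges of −0.43 to 0.03 for *Robo4*, −0.60 to 0.56 for *Robo3*, −0.16 to 0.28 for *Slit3*, −0.02 to 0.48 for *Ntn5*, −0.21 to 0.03 for *Unc5c* and −0.01 to 0.19 for *Ntng2*. The cause was not tested.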
